A study of Mus musculus with 20 samples.

Results

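Transcripts of 10 genes that are abundant in white or brown fat (Adipoq, Plin1, Cidec, Cfd, Lep, Retn, Adrb3, Ucp1, Fabp4 and Car3) were read in the kidneys of mice given the 7c cocktail, with the livers as a reference. These 10 members, of 57010 genes in the count table, were chosen by name with the 7c effect in kidney already known, so that their kidney differences are given as a description, with no p of a member, and nothing is read from how many the fit called. The mice were male UM-HET3, a genetically heterogeneous stock in which each animal carries its own mixture of founder alleles, and were 12 months old when treatment began. For 28 days, minipumps placed under the skin delivered either 7c (0.1 mg/kg/day of repsox, tranylcypromine, DZNep, CHIR99021, forskolin and TTNPB each, and 1 mg/kg/day of valproate) or the solvent alone (50% DMSO in PEG300). The kidney groups held 6 libraries from 7c mice and 4 from vehicle mice, as did the liver groups. RNA came from pieces of frozen whole tissue, and how far fat around the kidney or in its sinus was removed is not given in the sources used here.

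Fat cells of white adipose tissue store triglyceride in 1 large droplet, whose surface carries perilipin 1 (Plin1) and the droplet-enlarging protein CIDEC, and they secrete adiponectin (Adipoq), leptin (Lep), resistin (Retn) and adipsin, the complement factor D (Cfd). Noradrenaline from sympathetic nerves acts on the beta-3 adrenergic receptor (Adrb3) of fat cells and raises cAMP, which starts lipolysis. Brown fat cells also make uncoupling protein 1 (Ucp1), which lets protons back into the mitochondrial matrix and turns the energy of respiration into heat. Fat lies around the kidney and in the renal sinus, and Fabp4, a fatty acid carrier, is made by capillary endothelium as well as by fat cells. Car3, a carbonic anhydrase of the cytosol, is abundant in fat, skeletal muscle and liver.

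RefSeq promoters, listed on build GRCm38.p6 from 250 bases before to 50 after the start, were found for 7 of the 10 members, as 8 promoters with 2 for Cidec. Promoters of Adrb3, Fabp4 and Car3 were not used here. Each of the 8 matched the GRCm39 genome exactly at 1 position near its gene. They are described because the fitted members with a promoter here varied together over the 10 kidneys (values below). Ucp1 was not fitted and is in no correlation, and shared regulation was not tested. The 4 with a match are shown as the 250 bases before the start, with every matched motif in capitals. They run 5′ to 3′ on the strand of the gene. The motifs searched on both strands were the nuclear receptor motif AGGTCA, its direct repeat with 1 base between the copies, which PPAR binds with RXR and which contains the single motif, the C/EBP core TTGCNNAA, the cAMP response element TGACGTCA, the shorter TGACG within it and the TATA box TATAAA.
Lep (chr6:29059970-29060219, plus strand): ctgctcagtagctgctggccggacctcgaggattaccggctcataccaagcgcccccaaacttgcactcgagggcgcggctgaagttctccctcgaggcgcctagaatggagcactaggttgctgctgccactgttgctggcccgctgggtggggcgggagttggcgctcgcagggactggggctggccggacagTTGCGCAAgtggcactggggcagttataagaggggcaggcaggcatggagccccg
Plin1 (chr7:79382525-79382774, minus strand): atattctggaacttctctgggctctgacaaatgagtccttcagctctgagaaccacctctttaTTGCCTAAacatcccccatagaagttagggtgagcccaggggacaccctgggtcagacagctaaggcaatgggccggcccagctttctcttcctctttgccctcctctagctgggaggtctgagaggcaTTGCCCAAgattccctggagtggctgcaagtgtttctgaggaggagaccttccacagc
Cidec (chr6:113411726-113411975, minus strand): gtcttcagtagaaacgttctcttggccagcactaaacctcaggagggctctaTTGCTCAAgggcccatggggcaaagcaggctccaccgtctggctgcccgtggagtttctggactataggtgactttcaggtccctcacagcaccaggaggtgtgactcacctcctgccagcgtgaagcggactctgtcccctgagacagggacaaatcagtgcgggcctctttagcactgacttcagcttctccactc
Ucp1 (chr8:84016727-84016976, plus strand): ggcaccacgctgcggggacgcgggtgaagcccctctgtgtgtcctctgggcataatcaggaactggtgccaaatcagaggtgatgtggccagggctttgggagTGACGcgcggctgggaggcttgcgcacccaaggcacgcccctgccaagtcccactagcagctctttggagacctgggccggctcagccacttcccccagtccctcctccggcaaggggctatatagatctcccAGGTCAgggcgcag
The C/EBP core stood in 3 of the 8 member promoters, once in Lep at -55, once in Cidec at -198 and at 2 places in Plin1 (-187 and -58), counted from the start, and in 10.8% of all 32851 promoters in the table. Ucp1 held 1 AGGTCA at -14 and 1 TGACG at -147, which 16.3% and 20.8% of all promoters hold. The direct repeat (0.0396% of all promoters), the full cAMP response element (1.79%) and TATAAA (13.6%) matched in 0 of the 8 windows. No letters of the 6 motifs matched in the windows of Adipoq, Cfd, Retn or the other Cidec promoter.

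The libraries held 27855849 to 64872451 counts in kidney and 28383359 to 34153084 in liver. Levels are given as CPM, the count of a gene in 1000000 counts of the library total after TMM scaling, which sets libraries of 1 tissue on a shared scale, and the order of the members by level is given as CPM per kb of exon. Of the counts between 1 and 20, 78.0% were even, as when both reads of a pair are counted, so that 6 counts stand for about 3 read pairs. Kidney markers matched the label, with 5820 to 7600 CPM of the phosphate transporter Slc34a1 and 1670 to 2440 CPM of uromodulin (Umod) in every kidney and 23700 to 60600 CPM of the androgen-regulated Kap, while the 12 kidney markers summed to 1.76 CPM at most in any liver. The share of mitochondrial transcripts was 3.98% to 9.1% in 7c kidneys and 6.73% to 9.15% in vehicle kidneys. Vehicle replicate 2 had the lowest summed level of the members other than Fabp4 and Car3 and stood apart within its group, so values without it are given below.

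The 4 secreted products of fat cells were low in vehicle kidneys and on average higher in 7c kidneys. Adipoq (chromosome 16, 22964106 to 22976810 on GRCm39) had 1.36, 0.111, 1.28 and 2.51 CPM in the vehicle kidneys, and between 1.66 and 11.4 CPM with a median of 4.75 in the 7c kidneys. The groups overlapped, since 7c replicates 1 and 2 (1.66 and 1.68 CPM) were below vehicle replicate 4, while the other 4 7c kidneys were above every vehicle kidney. Its log2 fold change, 7c minus vehicle, was 2.07 with a standard error of 0.703. Leptin (Lep, chromosome 6, 29060216 to 29073877), the satiety hormone, was the scarcest secreted product, with 8, 0, 16 and 4 counts in the vehicle kidneys (0 to 0.428 CPM) and 14 to 52 counts in the 7c kidneys (0.272 to 1.63 CPM, median 0.845). In 4 of 6 7c kidneys Lep was above every vehicle kidney, and its log2 fold change was 2.12 (standard error 0.762). Retn (chromosome 8, 3705324 to 3710689), which encodes resistin, had 0.261, 0.0557, 0.588 and 0.907 CPM with vehicle, and 0.545 to 5.34 CPM with a median of 1.58 with 7c. Only 7c replicate 1 lay within its vehicle range, and the log2 fold change was 2.39 (standard error 0.756). Cfd (chromosome 10, 79726668 to 79728496), whose product activates the alternative complement pathway, had 2.35, 0, 1.44 and 6.0 CPM with vehicle and 2.45 to 24.9 CPM with a median of 9.75 with 7c. For Cfd, 7c replicates 1 (3.39 CPM) and 6 (2.45 CPM) lay within the vehicle range, and the log2 fold change was 2.14 (standard error 0.88).

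The 2 droplet proteins showed differences of similar size. Plin1 (chromosome 7, 79369966 to 79382718), which guards the droplet against lipases, had 0.523, 0, 1.6 and 1.81 CPM in the vehicle kidneys and 1.08 to 10.7 CPM with a median of 5.11 in the 7c kidneys. Only 7c replicate 2 (1.08 CPM, 36 counts) was not above every vehicle kidney, and the log2 fold change was 2.5 (standard error 0.835). Cidec (chromosome 6, 113400691 to 113412721), which passes lipid from small droplets to larger ones, had 1.1, 0.445, 1.1 and 2.79 CPM with vehicle and 2.27 to 14.4 CPM with a median of 8.38 with 7c. Of the 7c kidneys, replicate 1 alone lay within the vehicle range of Cidec, 7c replicate 2 (2.82 CPM) being just above vehicle replicate 4. The log2 fold change of Cidec was 2.55 (standard error 0.6).

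Adrb3 (chromosome 8, 27715443 to 27740925) was the member whose groups did not overlap in kidney. Its vehicle kidneys held 8, 10, 8 and 16 counts (0.209, 0.278, 0.214 and 0.558 CPM), and its 7c kidneys held 24 to 134 counts (0.719 to 3.58 CPM, median 1.31). The log2 fold change was 2.44 (standard error 0.586). In the annotation, 44.4% of the exon bases of Adrb3 are shared with Gm45470, a long noncoding RNA on the opposite strand, and since the strand setting of the counting is not given in the sources used here, the source of reads there is uncertain. Gm45470 had 0 to 14 counts in each kidney, fewer than Adrb3 in all 10.

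**Figure D1:**
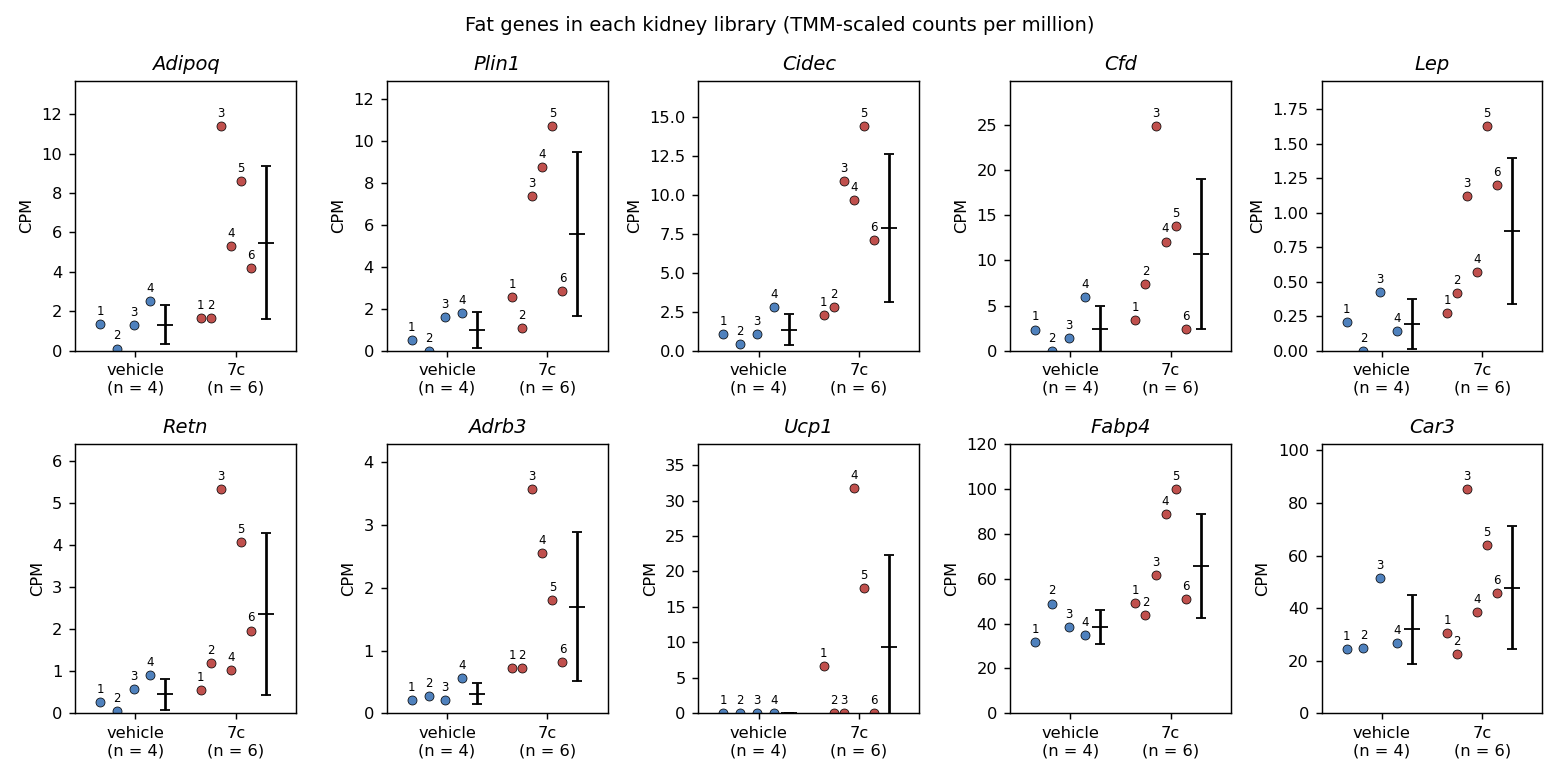
Level of each of the 10 members in each kidney, in TMM-scaled CPM on a linear axis that starts at 0, with the replicate number beside each point and the group mean and SD as a black bar (4 vehicle kidneys in blue, 6 7c kidneys in red). The 7c kidneys 3, 4 and 5 are high for most members, 7c kidneys 1 and 2 lie close to the vehicle kidneys, and Ucp1 is seen in 7c kidneys 1, 4 and 5.

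Ucp1 (chromosome 8, 84016647 to 84025085) was found at more than 2 counts in 3 kidneys, all from 7c mice. It had 444 counts in 7c replicate 1, 1229 in replicate 4 and 567 in replicate 5 (6.72, 31.8 and 17.7 CPM), 2 counts in replicate 2 and 0 in replicates 3 and 6. All 4 vehicle kidneys had 0 counts. The 7c mean was 9.39 ± 13.0 CPM (SD, n = 6), at least 219-fold above the 0.0428 CPM that 6 counts over the whole vehicle group would give, and the SD was larger than the mean. Without 7c replicate 4 the mean was 4.9 CPM, at least 115-fold above that floor, and without any other 7c kidney the bound lay between 180 and 263-fold. With 10 counts or more in 3 of 10 kidneys, Ucp1 did not pass the filter, a minimum of 10 counts in 50% or more of the kidneys, and was not fitted. The order of the 7c kidneys by Ucp1 differed from that by Adipoq. 7c replicate 3, the highest for Adipoq (11.4 CPM), Cfd and Retn, had 0 counts of Ucp1, and 7c replicate 1, the lowest 7c kidney for Adipoq (1.66 CPM), had 4.04 counts of Ucp1 for each count of Adipoq, not corrected for transcript length. That ratio was 5.97 in replicate 4 and 2.05 in replicate 5. These 2 kidneys, the highest for Ucp1, were also the highest for Plin1 (8.75 and 10.7 CPM, beside 7.37 CPM in replicate 3), and replicate 5 was the highest for Cidec (14.4 CPM).

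Some other transcripts of brown fat stood in the same 3 kidneys and some did not, and these are named after their values were seen. Cidea, a droplet protein of brown fat, had 3.18, 7.92 and 4.38 CPM in 7c replicates 1, 4 and 5, and 0 to 0.32 CPM in the other 7 kidneys. Cox8b, a cytochrome oxidase subunit of muscle and brown fat, had 2.51, 6.05 and 2.19 CPM there and 0.336 CPM at most elsewhere. Otop1, which encodes a proton channel, had 0.757, 1.71 and 0.876 CPM there, 0.192 CPM in 7c replicate 6 and 0 in the remaining 6 kidneys. Elovl3, a fatty acid elongase that brown fat raises in the cold, had 1.84 CPM in 7c replicate 4. In the other 7c kidneys, among them replicates 1 and 5, it had 0 to 0.212 CPM, below the 0.314 to 0.39 CPM of the vehicle kidneys. Cox7a1 was highest in vehicle replicate 2 (16.1 CPM, beside 9.59, 11.1 and 15.1 CPM in 7c replicates 1, 4 and 5). Cpt1b was highest in vehicle replicate 4 (0.907 CPM, beside 0.197, 0.233 and 0.219 CPM in 7c replicates 1, 4 and 5). Skeletal muscle also makes Cox8b, and some of its markers, likewise chosen with their values in view, stood in 7c replicates 1, 4 or 5 too. Acta1, the skeletal muscle actin, had 0.938, 1.45 and 0.688 CPM in 7c replicates 1, 4 and 5 and 0.288 CPM at most in the other kidneys. Myh4, a myosin of fast muscle fibres, had 0.636 and 0.828 CPM in 7c replicates 1 and 4 and 0 in the others, and Ckm, the muscle creatine kinase, had 0.106 CPM at most in any kidney. Their part in the levels of the brown fat genes was not tested. Zic1, Lhx8, Prdm16 and Ppargc1a were also picked with their values in view. The brown fat transcription factors Zic1 and Lhx8 had 0 counts in every kidney. Prdm16 (5.87 to 11.4 CPM in vehicle and 7.69 to 11.3 CPM in 7c kidneys) and Ppargc1a (36.1 to 48.4 and 30.8 to 52.7 CPM), regulators of brown fat that kidney also makes, overlapped between the groups.

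**Figure D2:**
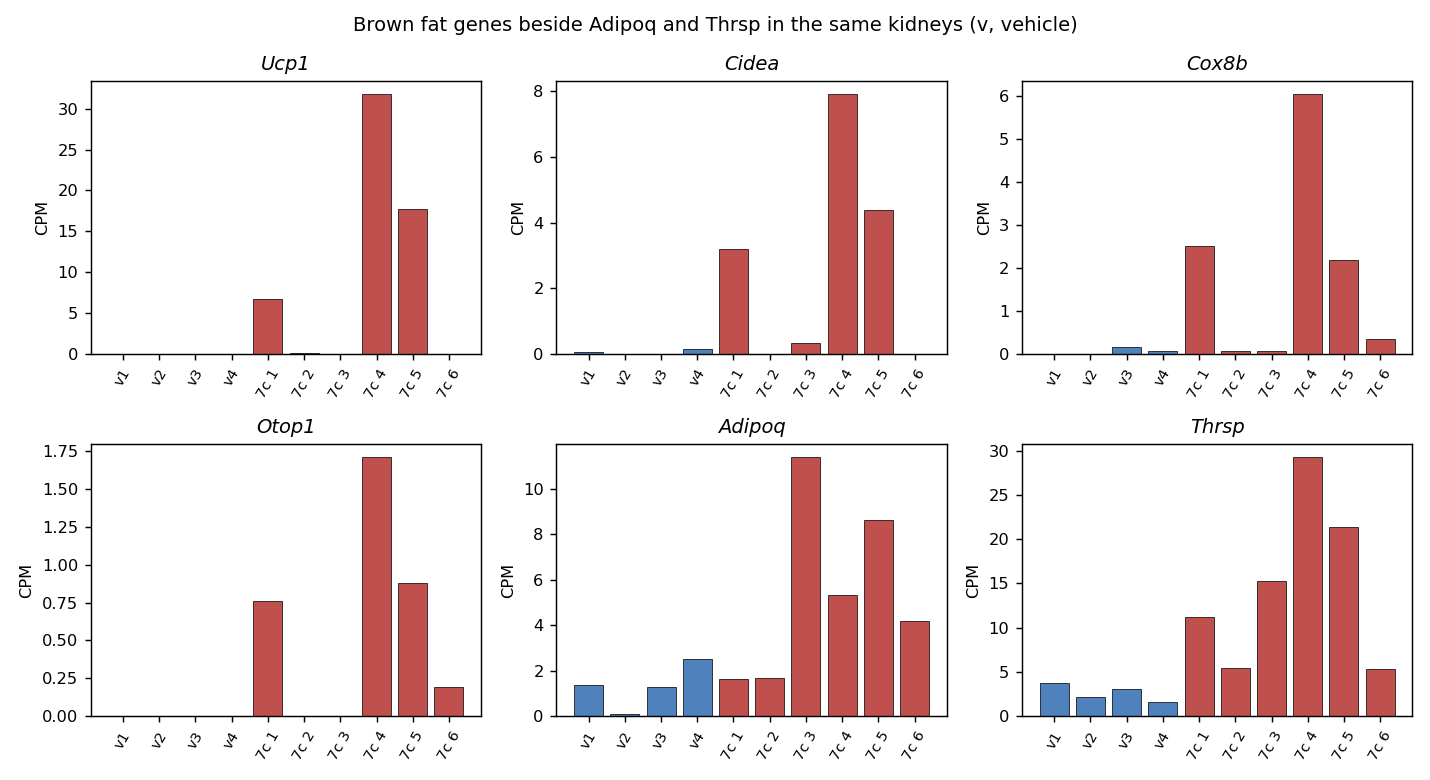
Ucp1, Cidea, Cox8b and Otop1 beside Adipoq and Thrsp in each of the 10 kidneys, in TMM-scaled CPM, with 1 bar for each library (vehicle in blue, 7c in red). The 4 brown fat genes stand in 7c kidneys 1, 4 and 5, whereas Adipoq is highest in 7c kidney 3.

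Fabp4 (chromosome 3, 10268785 to 10273737) and Car3 (chromosome 3, 14928489 to 14937595), the members with the highest kidney levels, had the smallest differences. Fabp4 had 31.6, 48.9, 38.6 and 34.7 CPM in the vehicle kidneys and 43.8 to 100.2 CPM with a median of 56.4 in the 7c kidneys. Only 7c replicate 2 lay within the vehicle range, and the log2 fold change was 0.77 (standard error 0.24). Vehicle replicate 2, with 4 or fewer counts of Adipoq, Plin1, Cfd, Lep and Retn, had the highest Fabp4 of the vehicle kidneys. The summed level of 10 markers of capillary endothelium, which also makes Fabp4, was 437 to 559 CPM in the 7c kidneys and 426 to 554 CPM in the vehicle kidneys, and 554 CPM in vehicle replicate 2. All 10 of these markers had a higher mean with 7c, with a median log2 fold change of 0.09 beside -0.006 over all genes, and their part in the Fabp4 difference was not tested. Car3 had 24.6, 24.7, 51.5 and 26.9 CPM with vehicle and 22.6 to 85.4 CPM with a median of 42.1 with 7c. The Car3 groups overlapped widely, with 2 of 6 7c kidneys above and 1 below every vehicle kidney, and the log2 fold change was 0.58 (standard error 0.348). For Fabp4, 24% of the exon bases are shared with the opposite-strand noncoding RNA Gm66293, which was not analysed here.

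Per kb of exon, the order of the members in the vehicle kidneys was Car3 (10.3 ± 4.23 CPM per kb, SD, n = 4), Fabp4 (7.76 ± 1.52), Cfd (2.54 ± 2.65), Adipoq (0.578 ± 0.431), Cidec (0.439 ± 0.325), Retn (0.167 ± 0.138), Plin1 (0.155 ± 0.136), Lep (0.0578 ± 0.0531), Adrb3 (0.055 ± 0.0289) and Ucp1 with 0 counts. The steps from Fabp4 to Cfd and from Adrb3 to Ucp1 were larger than the larger SD of the 2 neighbours, and the other 7 steps were not. In the 7c kidneys the first 3 places were the same (15.5 ± 7.51, 13.3 ± 4.69 and 11.1 ± 8.61 CPM per kb, SD, n = 6), and Ucp1 came next with a mean of 4.84 ± 6.69 CPM per kb, which rests on 3 kidneys. In that group 0 of the 9 steps exceeded the larger SD.

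In the edgeR quasi-likelihood test with Benjamini-Hochberg adjustment over 17749 kidney genes, 0 of the 9 fitted members were past a threshold of 0.05, the background being 0.0% of all genes. The study's own edgeR analysis of kidney did call Cidec, and also Thrsp, both higher with 7c. At an unadjusted p under 0.05, edgeR found 8 of the 9 members and 463 of all genes (2.61%). DESeq2 found 7 members and 574 genes (3.23%) there, and limma-voom 8 members and 479 genes (2.7%). At an adjusted p under 0.05, DESeq2 called 2 members (Cidec and Adrb3) and 18 genes (0.101%), and limma-voom 0 members and 2 genes (0.0113%). The 9 fitted members had a median log2 fold change of 2.14 beside -0.006 over all fitted genes. Nothing is read from these counts, since the members were chosen on this contrast, and Lep and Adrb3 reached 10 counts in all 6 7c kidneys but in 1 and 2 vehicle kidneys. Adrb3 was the 1 member with every 7c kidney above every vehicle kidney, an order that 0.31% of all fitted genes showed. Without vehicle replicate 2 that count was 2 (Adrb3 and Fabp4), beside 1.78% of all fitted genes, and without vehicle replicate 3 it was 2 (Lep and Adrb3), beside 0.665%. It was 3 without 7c replicate 1 (0.462% of all fitted genes) or 7c replicate 2 (0.535%), and 4 without vehicle replicate 4 (0.778%). With each kidney left out in turn, the log2 fold changes of Adipoq, Plin1, Cidec, Cfd, Lep, Retn and Adrb3 lay between 1.68 and 3.15. Without vehicle replicate 4 the values of Cidec and Cfd were 3.15 and 3.06, and without vehicle replicate 3 that of Lep was 2.86. With limma-voom, Plin1 and Cfd had log2 fold changes of 3.47 and 3.46. Without vehicle replicate 2 these 7 values were 1.68 to 2.4, and those of Fabp4 and Car3 were 0.91 and 0.48.

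**Figure D3:**
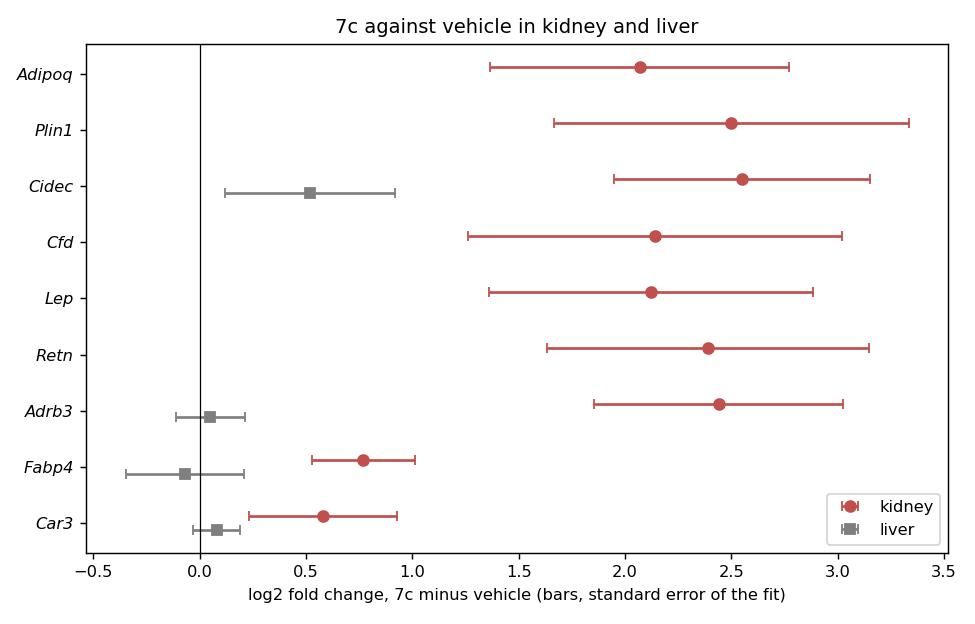
Log2 fold change, 7c minus vehicle, with its standard error, for the 9 members fitted in kidney (red circles) and the 4 fitted in liver (grey squares). In kidney 7 members lie between 2.07 and 2.55 and Fabp4 and Car3 below 1, and in liver the 4 values lie between -0.07 and 0.52.

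The number of members above every vehicle kidney was 4, 5, 9, 9, 10 and 7 in 7c replicates 1 to 6, beside 12.8%, 13.3%, 16.0%, 14.1%, 26.5% and 15.4% of all fitted genes in the same kidneys, and nothing is read from these counts. Summed over the 8 members other than Fabp4 and Car3, the level was 18.2, 15.4, 64.6, 71.8, 72.7 and 20.5 CPM in these kidneys, and 6.01, 0.89, 6.66 and 14.7 CPM in the vehicle kidneys. Without Ucp1, the sum over the other 7 was 11.4, 15.3, 64.6, 40.0, 55.0 and 20.5 CPM in the 7c kidneys, so that 7c replicates 3, 4 and 5 were the highest either way, and 7c replicate 1 was below vehicle replicate 4. In RNA of whole tissue, more fat cells in a sample and more RNA of these genes per cell cannot be told apart.

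After each group's mean was removed, Adipoq varied with Plin1 (Pearson r = 0.92), Cidec (0.91), Retn (0.89), Cfd (0.88) and Lep (0.82) over the 10 kidneys. Without vehicle replicate 2, an alternative chosen after seeing the data, these 5 values were 0.81, 0.95, 0.84, 0.72 and 0.64 over the other 9 kidneys. Also without that kidney, the r of Cfd with Lep fell from 0.62 to 0.11, and that of Plin1 with Cidec stayed at 0.82. Adrb3 had an r of 0.74 with Cidec and 0.61 with Adipoq, and of 0.83 and 0.88 without that kidney. Fabp4 had an r of -0.06 with Cfd, 0.1 with Retn and 0.15 with Adipoq, and its highest value was 0.57 with Adrb3. Without vehicle replicate 2 these were 0.47, 0.41, 0.66 and 0.62, and Fabp4 had an r of 0.87 with Plin1 (0.23 over all 10 kidneys), so that the low values of Fabp4 rested on that kidney. These values share libraries and their depth, and are given as a description. By the same measure, the non-member genes most like the mean of the fitted members were Sult6b1 (0.955, at most 0.375 CPM in any kidney), Gm37154 (0.927) and Gm4924 (0.923), followed by Ywhaq-ps3, Depdc5, Gm56785, ENSMUSG00000101599, Nfe2l1, Dnajb13 and Akna (0.922 to 0.887), and these 10 included no gene of the white or brown fat lists. Without vehicle replicate 2 the values of these 10 genes were 0.828 to 0.942.

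Of 26 other genes of white fat cells, 23 were fitted in kidney, 19 with a higher and 4 with a lower mean in the 7c kidneys (median log2 fold change 0.21). By edgeR's quasi-likelihood test 0 of the 23 were past the threshold, with 4 at an unadjusted p under 0.05, beside 2.61% of all fitted genes. DESeq2 and the fit of both tissues together each called 1 of them, Thrsp, beside 0.101% of all fitted genes in each, and limma-voom called 0. Those with the highest CPM in kidney, the gluconeogenic enzyme Pck1 (834 to 1430 CPM with vehicle, 863 to 1850 with 7c), the glycerol phosphate dehydrogenase Gpd1 (378 to 607 and 428 to 622 CPM) and the fatty acid transporter Cd36 (306 to 598 and 253 to 497 CPM), are also made by kidney, and their groups overlapped. Of the 23 fitted genes, 2 (Thrsp and Scd1) had every 7c kidney above every vehicle kidney, beside 0.31% of all fitted genes. Adig, which was not fitted, had the same order, and these genes are named after their values were seen. Thrsp, a regulator of lipogenesis, had 1.67 to 3.82 CPM with vehicle and 5.33 to 29.3 CPM with 7c (log2 fold change 2.44, standard error 0.494), and was highest in 7c replicates 4 and 5. Scd1, the desaturase that makes oleate, had 57.0 to 105 CPM with vehicle and 107 to 356 CPM with 7c (log2 fold change 1.15, standard error 0.317). Adig, which encodes adipogenin, had 0.0523 to 0.107 CPM with vehicle and 0.192 to 1.81 CPM with 7c and did not pass the filter. Lipe, Plin4 and Pparg were likewise picked with their values in view. Of the hormone-sensitive lipase Lipe (14.0 to 28.7 and 15.5 to 36.7 CPM), the droplet protein Plin4 (2.84 to 5.34 and 3.39 to 11.9 CPM) and Pparg, the transcription factor of fat cell formation (0.223 to 7.73 and 1.44 to 10.9 CPM), the groups overlapped. Pparg was at 7.53 and 7.73 CPM in vehicle replicates 1 and 3, above 5 of the 6 7c kidneys.

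Among the 19 other genes of brown fat, 12 were fitted in kidney, with 9 higher and 3 lower on average (median 0.17). Glycerol kinase (Gk), the fatty acid carrier Fabp3 and the fatty acid transporter Slc27a1, which had the highest CPM, had log2 fold changes of -0.25, 0.30 and 0.32. The median over 15 transcription factors of fat cells was 0.08, and Rxra (-0.06), Klf15 (-0.09) and Esrra (0.06) had the highest CPM. Among the 12 receptors of fat-derived hormones and fat-cell signals, 11 were fitted, with a median of -0.05, and the adiponectin receptors Adipor1 (130 to 161 CPM with 7c, 138 to 146 with vehicle) and Adipor2 (71.8 to 115 and 85.1 to 102 CPM) and the resistin-binding protein Cap1 (162 to 194 and 177 to 197 CPM) overlapped between the groups. Paralogs of the members, such as Car2, Car4 and Car12, had log2 fold changes of -0.12, 0.01 and -0.21, and the median of the 28 fitted was 0.09. Of the brown fat genes, transcription factors, receptors and paralogs, 0 were past the threshold in kidney by edgeR's quasi-likelihood test, DESeq2 or limma-voom, and by edgeR 0, 1, 1 and 1 had an unadjusted p under 0.05 (2.61% of all fitted genes).

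Markers of other cells were read in the same kidneys. Blood cell genes summed to 2240, 926, 658, 702, 2270 and 481 CPM in 7c replicates 1 to 6 and to 410, 1310, 632 and 317 CPM in vehicle replicates 1 to 4. All 9 fitted blood genes had a higher mean with 7c (median log2 fold change 0.77), and haemoglobin held most of the sum (Hba-a1 at 1040 and 1140 CPM in 7c replicates 1 and 5). Hba-a1, Hba-a2 and Hbb-bs had log2 fold changes of 0.94, 0.85 and 0.80. Smooth muscle genes summed to 219 to 421 CPM with 7c and 189 to 358 CPM with vehicle, 8 of 9 higher on average, with log2 fold changes of 0.20 for Acta2, 0.21 for Smtn and 0.33 for Myl9. The endothelial genes Plvap, Emcn and Pecam1 had log2 fold changes of 0.23, 0.05 and 0.14. The 10 genes of adipose stroma summed to 483 to 671 CPM with 7c and 401 to 585 CPM with vehicle (median log2 fold change 0.04), and Ly6a, which endothelium also makes, held most of that sum (log2 fold changes 0.28 for Ly6a, -0.10 for Dpp4 and -0.01 for Col15a1). Genes of urothelium and mesothelium summed to 9.87 to 20.8 CPM with 7c and 9.56 to 13.7 CPM with vehicle, with 7 of 8 fitted genes higher and a median of 0.7 (0.73 for Upk3b, -0.22 for Wt1 and 0.67 for Krt19). Skeletal muscle genes summed to 15.9 to 95.5 CPM with 7c and 43.9 to 75.7 CPM with vehicle, most of it Pvalb, which kidney makes, with log2 fold changes of -0.14 for Pvalb, 0.25 for Mylpf and 0.50 for Actn3. The adrenal genes summed to 2.35 to 5.2 CPM with 7c and 3.01 to 4.7 CPM with vehicle, most of it Star (log2 fold change -0.27), while Hsd3b1 and Mc2r had 0.802 and 0.182 CPM at most. Hepatocyte genes summed to 2230 to 2990 CPM with 7c and 2570 to 3060 CPM with vehicle, most of it Cyp2e1, and Cyp2e1, Ttr and Apob had log2 fold changes of -0.11, -0.08 and 0.17. Of the 9 fitted hepatocyte genes 7 had a lower mean with 7c, and the median log2 fold change of the list was -0.94, with 0 genes past the threshold by edgeR's quasi-likelihood test, DESeq2 or limma-voom, and 4 at an unadjusted p under 0.05 by edgeR (2.61% of all fitted genes). The fit of both tissues together called Cps1 (0.101% of all fitted genes). The scarcer ones differed more. Alb, serum albumin, had 22.8 to 44.0 CPM with vehicle and 8.69 to 30.7 CPM with 7c (log2 fold change -1.08), and Ahsg had 0.855 to 3.56 and 0.0908 to 1.3 CPM (-2.20). Cps1, the first enzyme of the urea cycle, had 0.501 to 1.52 CPM with vehicle and 0 to 0.336 CPM with 7c (-2.99), and its groups did not overlap. Alb, Ahsg and Cps1 were picked with their values in view. The part of these cells in the differences of the members was not tested.

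**Figure D4:**
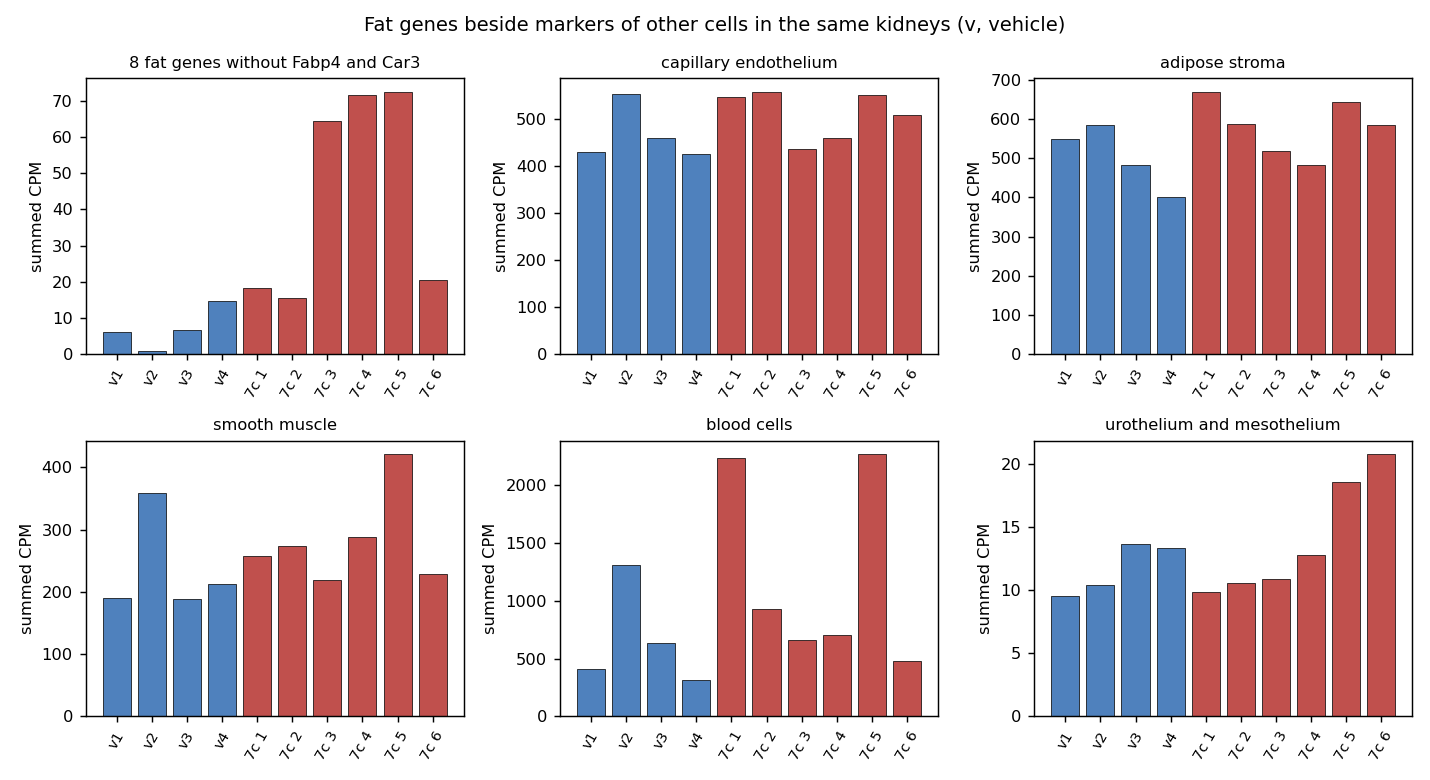
Summed TMM-scaled CPM of the 8 members other than Fabp4 and Car3 and of 5 marker lists in each of the 10 kidneys, with 1 bar for each library (vehicle in blue, 7c in red) on axes that start at 0. The members are highest in 7c kidneys 3, 4 and 5, blood cell genes in 7c kidneys 1 and 5, and the endothelial sum has much the same range in both groups.

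In liver, where the members were not chosen on the 7c contrast, 4 of them passed the filter and 0 were past the threshold by edgeR's quasi-likelihood test, DESeq2 or limma-voom, and 0 had an unadjusted p under 0.05. The background for edgeR was 0.00666% of 15012 genes. Of the same genes, DESeq2 called 6 and limma-voom 1, and 565 had an unadjusted p under 0.05 by edgeR. Cidec had 2.5, 0.859, 2.87 and 2.89 CPM with vehicle and 1.66 to 5.3 CPM with a median of 3.17 with 7c, which gave a log2 fold change of 0.52 with a standard error of 0.4 (edgeR, adjusted p = 1.0). Adrb3 (0.05, standard error 0.164), Fabp4 (-0.07, standard error 0.279) and Car3 (0.08, standard error 0.111) had log2 fold changes near 0, each with an adjusted p of 1.0 from edgeR. Car3 had 5120 to 6750 CPM with vehicle and 5480 to 7270 CPM with 7c, so that its groups overlapped. Lep had 0 counts in all 10 livers, and Adipoq, Plin1, Retn, Cfd and Ucp1 had at most 10 counts in any liver. The liver of 7c replicate 6 also held skeletal muscle transcripts (784 CPM summed over 10 markers, beside 1.28 CPM at most in the vehicle livers), and the few counts of Plin1 (2), Retn (4) and Ucp1 (2) among the livers were all in this library. Adipoq and Cfd had 0 counts in it. Their counts stood in other livers, for Adipoq 2 in 7c replicate 5 and 10 in vehicle replicate 4. For Cfd they were 4 in 7c replicate 2, 2 in 7c replicate 5 and 4 in vehicle replicate 4. Whether the 7c effect differed between kidney and liver was not tested.

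In vehicle mice, kidney was compared with liver in a fit of its own, which did not use the 7c mice. Of the 5 members that passed the filter there, 4 were past the threshold, Adipoq and Fabp4 higher in kidney (27.7% of all 17245 genes were called higher) and Adrb3 and Car3 lower (25.7% were called lower). Adipoq passed this filter through 3 kidneys and 1 liver, and nothing is read from the count. CPM here were scaled within each tissue, while the fit scaled both tissues together. So ratios of CPM means differ from the fitted log2 differences, and orders of kidneys and livers by CPM are not scaled between tissues. Fabp4 had 38.5 ± 7.54 CPM in kidney and 9.42 ± 3.39 CPM in liver (SD, n = 4 each), with every kidney above every liver. Its fitted log2 difference was 1.4 (standard error 0.278, adjusted p = 0.00135 from edgeR). Car3 had 31.9 ± 13.1 CPM in kidney and 5990 ± 761 CPM in liver, a log2 difference of -8.18 (standard error 0.341, adjusted p = 7.77e-09 from edgeR). Adrb3 also was higher in liver, with 532 to 1073 counts beside 8 to 16 in kidney and a log2 difference of -6.83 (standard error 0.372, adjusted p = 5.65e-08 from edgeR). The overlapping Gm45470 had 279 to 969 counts in the same livers and 0 to 5 in the kidneys, so that it cannot be told which of the 2 genes the Adrb3 counts of liver came from. Adipoq had a log2 difference of 3.48 (standard error 1.29, adjusted p = 0.0402 from edgeR), which was not past the threshold without liver vehicle replicate 1, 2 or 3 (adjusted p = 0.083, 0.0827 and 0.0739, edgeR). Without kidney vehicle replicate 1, 3 or 4 or liver vehicle replicate 4 it did not pass the filter, so that its call held without 1 of the 8 libraries, kidney vehicle replicate 2. The number of members past the threshold was 3 with 5 of the 8 libraries left out in turn, beside 46.9% to 51.1% of all genes called in either direction. It was 7 with no filter (32.8% of all genes) and 5 with the replicate number as a block (50.7%). With the replicate number as a block the log2 difference of Adipoq was 4.6, and with limma-voom it was 4.09. Cidec was lower in kidney by a log2 difference of -1.38 (standard error 0.567, adjusted p = 0.0617 from edgeR), with adjusted p between 0.0163 and 0.145 over the alternatives. Its log2 difference was -1.97 without kidney vehicle replicate 4, and its adjusted p was 0.0197 (edgeR) with the block. Plin1, Cfd, Lep and Retn did not pass the filter here, with at most 60, 172, 16 and 26 counts in a vehicle kidney and at most 4 in a vehicle liver.

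**Figure D5:**
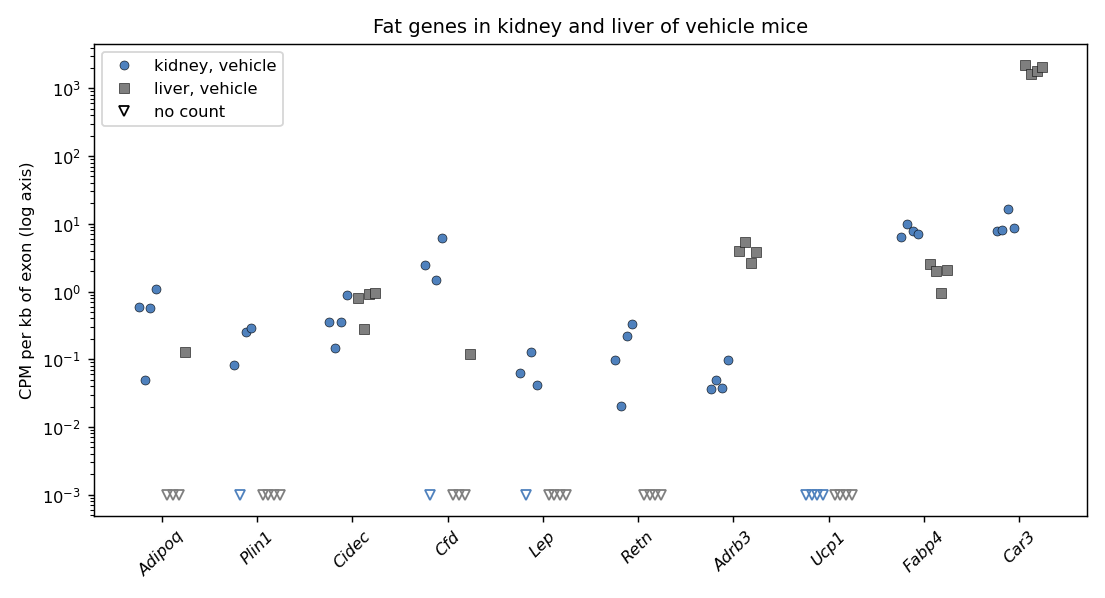
Level of each member in each vehicle kidney (blue circles) and vehicle liver (grey squares), in CPM per kb of exon on a log axis, with open triangles at the foot for libraries with no count. CPM were TMM-scaled within each tissue and not between the tissues. Car3 and Adrb3 lie higher in liver, Fabp4 higher in kidney, and Plin1, Lep, Retn and Ucp1 have no counts in the vehicle livers.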

How the data were processed

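RNA-seq of the liver and kidney of 6 mice given 7c and 4 given vehicle was read, 20 libraries in all, grouped by tissue and treatment from the labels. Per the labels, the authors used a stranded kit on polyadenylated RNA, STAR 2.7.11b with the GRCm39 genome, and featureCounts 2.0.6. They deposited raw counts for 57010 genes, neither normalized nor filtered. The annotation release and the strand setting of the counting are not given in the sources used here. Symbols and positions came from GENCODE release M39, which matched 56310 genes. Of the non-zero counts under 20, 78.0% were even, so that a floor of 6 counts was used, about 3 read pairs, and such floors cover counting error only.

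A gene entered a fit when 50% or more of its libraries held 10 counts or more, the filter of the study. Counts were fitted with TMM in edgeR 4.0.16 (R 4.3.3), the quasi-likelihood F-test, treatment or tissue as the only term, and Benjamini-Hochberg adjustment over all genes tested at a threshold of 0.05. Each standard error given was computed back from this test, as the absolute log2 fold change divided by the square root of F. Alternatives included DESeq2 1.42.0, voom of limma 3.58.1, edgeR with RLE size factors, filterByExpr or no filter, a joint fit of both tissues, a replicate block, and each library left out in turn. The fits were tested on simulated data. For correlations, log2 CPM was computed with 2 as the prior count. The correlations without vehicle replicate 2 were added after the data were seen.

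The members, the gene lists, the motifs and the alternatives were chosen with earlier results of these data known. All 10 members are described, with the 3 genes of each list that had the highest mean in kidney, any gene past the threshold and the 10 genes most like the members, and genes outside this rule are marked as chosen after their values were seen. Each library is labelled as its own biological replicate. The liver and kidney came from the same mice, and whether equal replicate numbers mark the same mouse is not stated.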

Additional observations from a re-analysis of the deposited data

Results flagged for a closer look

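Car3 in the vehicle kidneys held 1 value far from the others. Replicate 3 had 51.5 CPM, while the other 3 vehicle kidneys had 24.6 to 26.9 CPM, a gap past the 95% critical value of Dixon's test for 4 samples. By chance about 1 in 20 groups shows such a gap, and every member was looked at in each group of both tissues. Groups with counts in 1 library only are not listed, such as Adipoq (10 counts) and Cfd (4 counts) in liver vehicle replicate 4. Vehicle replicate 3 lay within the range of the other vehicle kidneys for Adipoq, Plin1, Cfd, Retn and Fabp4, and was the highest of them for Lep (0.428 CPM, beside 0 to 0.209 CPM).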

How the results depend on the processing

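In kidney, 0 members were past the threshold with edgeR's quasi-likelihood test, and this count was 2 with DESeq2 (Cidec and Adrb3) and 1 with both tissues in 1 fit (Adrb3), beside 0.101% of all 17749 genes in each, while it was 0 with limma-voom, RLE size factors, no filter, filterByExpr and each kidney left out. The 153 log2 fold changes of single members in kidney under the alternatives kept their direction and moved by less than 1 SD between replicates. The number of members whose kidney groups did not overlap ranged from 1 to 4 with each kidney left out, beside 0.411% to 1.78% of all fitted genes. Between kidney and liver of vehicle mice, the count past the threshold was 4, and 7 with no filter (32.8% of 29794 genes called), where Plin1, Cfd and Retn were added. In liver, 3 values near 0 changed sign, Adrb3 to -0.1 without vehicle replicate 3, and Fabp4 to 0.04 without 7c replicate 4 and 0.11 without vehicle replicate 1, each with an adjusted p of 1.0 from edgeR. With each liver left out, Adrb3 ranged from -0.1 to 0.24 and Fabp4 from -0.29 to 0.11. The other 65 liver values did not change side or direction. Between the tissues, Cidec passed the threshold under 5 alternatives and Adipoq did not under 3, beside those where it was not fitted. With the replicate block, the counts were 0 in kidney, 0 in liver and 5 between the tissues (50.7% of all genes). Within kidney or liver, this block tied 7c and vehicle mice by number alone, though they were different mice. 7c replicates 5 and 6 had no vehicle library of their number, so there the block tests no pairing. Same-numbered kidney and liver libraries of vehicle mice had correlations of their deviations of 0.172, 0.0128, 0.131 and 0.115 over 14163 genes, and 3 of the 4 kidneys correlated best with the liver of their own number. For 7c mice they were 0.212, 0.259, 0.0633, 0.184, 0.0166 and 0.118, 4 of 6 being best with their own number. The kidneys of 7c and vehicle replicate 3, which came from different mice, had a correlation of 0.301, higher than any of these. Not every pair was over 0.1 and the labels do not tie the numbers to mice, so the fit without the block was kept. Depth limits Lep, Retn and Adrb3, which had 0 to 26 counts in the vehicle kidneys.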
